A study of Mus musculus with 23 samples.

Results

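Loss of Acss2 was compared with the intact gene in dorsal hippocampus after fear conditioning, across all genes of the count table. The comparison takes 7 of the series' 23 libraries, chosen by their labels: 4 from Acss2 knockout mice (KO fear) and 3 from wild type mice (WT fear). All were of the C57BL6/J strain, and no sex or age is given in the sources used here. In the KO, exons 3 to 7 of the gene had been removed in embryos at the single-cell stage, so every cell lacked them throughout life, and effects of development cannot be told apart from effects at the time of learning. Mice of both genotypes received 1 shock in a conditioning chamber and were killed 30 min later, and RNA was taken from dorsal sections 1 mm thick. Batch B1 holds all 3 WT fear libraries together with KO fear 1 and 2, and batch B3 holds KO fear 3 and 4. The other 10 dorsal libraries, 5 WT and 5 KO taken straight from the home cage, entered the fit to estimate batch and spread, and gave the genotype difference at rest. Whether each library comes from its own animal is not stated, and p-values here reflect only how far these libraries scatter, part of which may be technical.

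ACSS2 joins acetate to coenzyme A. In neurons the enzyme is found in the nucleus as well as the cytosol, where the acetyl-CoA it makes can serve histone acetyltransferases. Contextual fear conditioning pairs a place with a shock, and the dorsal hippocampus holds the memory of the place. Within minutes of such an event, calcium and cAMP signals act through kinases on transcription factors already present, and immediate early genes such as Fos, Egr1 and Arc are switched on. Genes of a later wave, among them feedback inhibitors of the ERK pathway, follow.

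The 5 exons that the KO lacks are printed from GENCODE release M21 (mm10), since they define the genotype compared. They lie within chr2:155549191-155550469 on the plus strand and make up 460 of the 2931 bases (15.7%) of the 18-exon transcript Acss2-201. Division of 460 by 3 leaves a remainder of 1.
Acss2 exon 3: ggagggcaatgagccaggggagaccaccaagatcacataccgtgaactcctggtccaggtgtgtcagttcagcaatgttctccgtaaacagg
Acss2 exon 4: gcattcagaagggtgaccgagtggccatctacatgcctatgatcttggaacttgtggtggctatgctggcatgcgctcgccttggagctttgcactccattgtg
Acss2 exon 5: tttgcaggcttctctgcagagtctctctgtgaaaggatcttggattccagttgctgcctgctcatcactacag
Acss2 exon 6: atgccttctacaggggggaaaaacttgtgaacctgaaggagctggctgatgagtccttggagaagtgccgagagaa
Acss2 exon 7: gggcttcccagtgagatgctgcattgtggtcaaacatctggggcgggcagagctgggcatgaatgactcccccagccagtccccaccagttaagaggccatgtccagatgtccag

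Acss2 RNA matched the genotype label in all 7 libraries. Levels are given as CPM, the count scaled to a fixed library size. The gene (ENSMUSG00000027605.18, chr2:155517948-155585724) stood at 57.2, 57.8 and 56.4 CPM in WT fear 1 to 3. In KO fear 1 to 4 it stood at 5.49, 5.2, 5.45 and 6.06 CPM, far below every WT library. Its log2 difference, KO minus WT, was -3.54 ± 0.13 (standard error), an 11.6-fold lower level (edgeR adjusted p = 1.95e-11), and -3.40 within B1. The counts cover the whole gene, so reads of the 13 exons that were kept are included. Acss2 overlaps Ggt7, Gss and the antisense gene Acss2os, and the library kit does not mark strand, so reads shared with them cannot be told apart. Ggt7, a gamma-glutamyltransferase family gene, was lower by 0.43 ± 0.13 on the log2 scale (edgeR adjusted p = 0.0262), with overlapping groups. Gss, which encodes glutathione synthetase, had a value of 0.32 ± 0.13 that did not pass (edgeR adjusted p = 0.0793).

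Library totals were 5362773 to 9109104 counts in WT fear and 7142143 to 19136156 in KO fear, where KO fear 3 and 4 were the deep ones. On the first principal component of the 17 dorsal libraries, which carried 39.4% of the variance, the WT fear libraries stood apart from the other 14. They scored 22.6, 36.9 and 31.6, against -23.2 to 6.8 for all others, home cage WT included. KO fear 1 to 4 scored -4.04, -10.6, 3.08 and 6.8, and the home cage libraries -23.2 to 6.09.

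Across the 14796 genes tested, 3286 passed an adjusted p of 0.05 (22.2% of genes, edgeR quasi-likelihood test with Benjamini-Hochberg adjustment): 1506 were higher in KO (10.2%) and 1780 lower (12%). The median over all genes was 0.01 on the log2 scale, and 5771 genes had an unadjusted p under 0.05. Within B1 alone, 2349 of 13661 genes passed (17.2%), and all 3241 of the called genes that were tested there kept their sign. The B1 libraries are part of the main fit, where KO fear 1 and 2 weigh 0.406 each and KO fear 3 and 4 0.094 each. The shared sign is therefore no independent test. Libraries of the groups did not overlap for 3160 genes (21.4%), and for 1601 of the 3286 called ones. Apart from Acss2, the smallest adjusted p was 0.0156, shared by 387 genes. The calls rested on few libraries. With KO fear 2, WT fear 2 or WT fear 3 left out, 1, 2 and 1 genes passed by edgeR, Acss2 each time, joined without WT fear 2 by Tmem267, which encodes a membrane protein. Unadjusted, 3933, 4340 and 4412 genes were then under 0.05, and DESeq2 called 1147, 1932 and 1800. Without KO fear 1, 2058 genes passed. Without KO fear 1 and 2 together, an alternative chosen after seeing the data that leaves KO fear to its B3 libraries, Acss2 was the 1 gene called by edgeR, 950 had an unadjusted p under 0.05, DESeq2 called 3, and 3266 of the 3286 genes kept their sign. Every call below except that of Acss2 is subject to this.

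**Figure D1:**
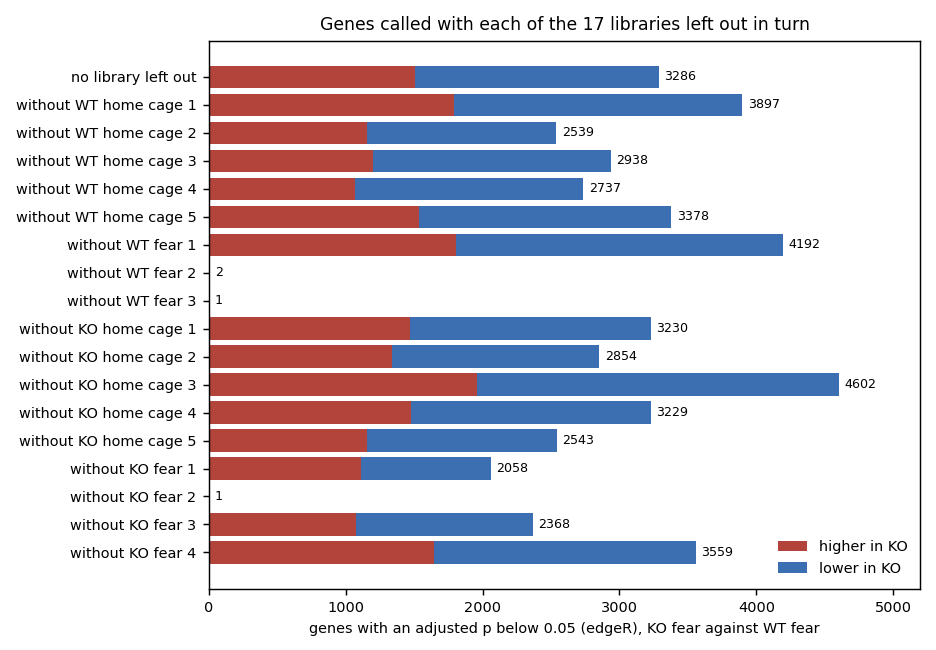
Number of genes with an edgeR adjusted p below 0.05 in KO fear against WT fear (x axis), for all 17 dorsal libraries and with each library left out in turn (y axis); the bar is split into genes higher and lower in KO. The count was 3286 with no library left out and 1 or 2 without WT fear 2, WT fear 3 or KO fear 2, and ran from 2058 to 4602 without any other library.

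The 10 genes with the smallest p among those higher in KO have unlike roles. Phkg1 encodes the catalytic subunit of muscle phosphorylase kinase, which starts glycogen breakdown, and overlaps Sumf2 and Zbed5 on the other strand. It stood at 23.1, 21.1 and 21 CPM in WT fear 1 to 3 and at 35, 36.1, 28 and 24.3 CPM in KO fear 1 to 4. The groups did not overlap, with the B1 knockouts highest, and the log2 difference was 0.72 ± 0.12 (edgeR adjusted p = 0.0156). Arg2, the mitochondrial arginase, overlaps Vti1b on the other strand and went from 1.13, 0.77 and 1.14 CPM to 4.80, 5.68, 1.89 and 1.58 CPM. Every KO library was above every WT library, by a log2 difference of 2.26 ± 0.39. Dnajc15, a co-chaperone of the mitochondrial inner membrane, rose from 25.5, 19.5 and 20 CPM to 36.9, 44.2, 40 and 31.5 CPM (0.95 ± 0.17). Ndufa7, a subunit of respiratory complex I, rose from 57.05, 50.02 and 49.4 CPM to 86.4, 138, 94.6 and 72.9 CPM (1.06 ± 0.20). For both, all 4 KO libraries were above all 3 WT libraries, KO fear 2 most. The others of the 10 smallest p were the interferon-inducible Mndal (1.73), the protease inhibitor Serpinb8 (1.22), the calcium sensor Scgn (1.84), the small nucleolar RNA host Snhg6 (1.28), the aldo-keto reductase Akr1b10 (0.91) and the homeobox gene Dbx2 (0.67), each at an edgeR adjusted p of 0.0156. Scgn and Serpinb8 overlapped between groups: KO fear 3 and 4 held 2.37 and 2.09 CPM of Scgn, against 1.77 to 3.21 CPM in WT.

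The further genes with the largest rise were genes of motile cilia and smooth muscle. Ccdc153, a gene of ciliated cells, stood at 0.567, 0.550 and 1.14 CPM in WT fear and at 9.87, 24.0, 7.28 and 4.68 CPM in KO fear. The lowest KO library was above the highest WT library, and the log2 difference was 4.26 ± 0.83 (edgeR adjusted p = 0.0156). Ak7, Dnah6 and Drc7, which encode an adenylate kinase, a dynein heavy chain and a dynein regulator of cilia, rose by 3.35, 2.64 and 2.46 on the log2 scale. Acta2, smooth muscle actin, went from 0.567, 0.880 and 0.507 CPM to 2.74, 6.64, 5.77 and 6.93 CPM, by 2.84 ± 0.55. In all 5 genes every KO library lay above every WT library, against 10.7% of all genes. These genes were picked for passing and for large changes in the same libraries.

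Among genes lower in KO, Spry4 had the smallest p after Acss2. It encodes a Sprouty inhibitor that receptor tyrosine kinase signalling itself induces and that restrains the ERK pathway. WT fear 1 to 3 held 17.0, 19.2 and 17.7 CPM, and KO fear 1 to 4 held 9.46, 8.82, 10.6 and 12.7 CPM. The groups did not overlap, and the 2 KO batches were close to each other. Its log2 difference was -0.93 ± 0.14 (edgeR adjusted p = 0.0156), and -0.76 without KO fear 1 and 2. Gpc4, a glypican that carries heparan sulfate on the cell surface, fell from 37.0, 45.7 and 44.8 CPM to 20.3, 17.6, 21.9 and 21.9 CPM (-1.13 ± 0.18). Irf2bp2, a transcriptional corepressor, fell from 37.8, 43.0 and 42.7 CPM to 28.5, 26.0, 27.0 and 24.6 CPM (-0.58 ± 0.10). In both genes the 4 KO libraries were alike and all lay under WT. The others were Fam117b (-0.75), the splicing factor gene Sf3a2 (-1.16), the glucosylceramide synthase Ugcg (-0.65), the cullin adaptor gene Rhobtb2 (-0.78), the synaptic adhesion gene Lrfn2 (-0.75), Tmem267 (-1.07) and the ubiquitin ligase adaptor Klhl42 (-0.61), each at an edgeR adjusted p of 0.0156. Fam117b overlaps Ica1l, Sf3a2 overlaps Plekhj1 and Tmem267 overlaps 3110070M22Rik on the other strand. Sf3a2, Lrfn2 and Tmem267 overlapped between groups, with KO fear 3 and 4 nearest to WT.

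The largest falls belonged to Rxfp1, the relaxin receptor gene, Vwc2l, Dcn, which encodes the matrix protein decorin, the gastrin-releasing peptide gene Grp and the zinc finger gene Tshz2. Rxfp1 stood at 0.756, 24.0 and 5.19 CPM in WT fear and at 1.1, 0.967, 6.42 and 4.38 CPM in KO fear. WT fear 2 alone was high, and WT fear 1 lay under every KO library. Tshz2 held 8.69, 150.5 and 28.1 CPM in WT fear against 21.7, 4.95, 23.6 and 36.6 CPM in KO fear, WT fear 2 again being the high library. The log2 differences of Rxfp1, Vwc2l, Dcn, Grp and Tshz2 were -3.41, -2.83, -2.60, -2.48 and -2.37 (edgeR adjusted p = 0.016, 0.0156, 0.0331, 0.0233 and 0.0286). Without WT fear 2 they were -1.71, -1.42, -0.57, -0.79 and -0.63, and none passed.

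Markers of cell types and hippocampal fields differed between the groups, and their part in the other differences was not tested. In bulk tissue, fewer cells of a type and less RNA per cell cannot be told apart. Each marker of the hippocampal fields CA1, CA2 and CA3, and dentate gyrus was detected in both groups. CA1 pyramidal markers were lower in KO for 6 of 8 genes and higher for Spink8 (0.86 ± 0.28), with a list median of -1.12 against 0.01 over all genes; 75% of members were lower against 12% of all genes. Summed, they held 733, 1140 and 1230 CPM in WT fear 1 to 3, and 456, 455, 961 and 1060 CPM in KO fear 1 to 4. Among the fear libraries the low ones were KO fear 1 and 2, while KO fear 3 and 4 lay inside the WT fear range. The WT home cage libraries held 440 to 625 CPM and the KO home cage libraries 444 to 1030 CPM. KO fear 1 and 2 thus lay inside the WT home cage range, and all WT fear libraries above it. Without KO fear 1 and 2 the list median was -0.26. Gpr161, a receptor gene of the primary cilium, held 59.9, 136 and 150 CPM in WT fear and 32.5, 33.5, 80.8 and 78.6 CPM in KO fear. Its groups overlapped through WT fear 1, and the log2 difference was -1.62 ± 0.35 (edgeR adjusted p = 0.0156). Fibcd1, which encodes a chitin-binding membrane protein, differed by -1.20 ± 0.32.

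CA2 and CA3 markers were higher for 6 of 13 members (46.2%, against 10.2% of all genes) and lower for 0, with a median of 0.69. Their sum was 612, 333 and 420 CPM in WT fear and 662, 850, 656 and 590 CPM in KO fear, WT fear 1 lying inside the KO range. Amigo2, an adhesion gene of CA2 that overlaps Pced1b on the other strand, rose from 19.1, 7.92 and 11.2 CPM to 23.6, 33.5, 22.2 and 22.8 CPM. All KO libraries were above WT, by 1.23 ± 0.25 on the log2 scale. Ntf3, the neurotrophin 3 gene, rose by 1.09 ± 0.24, Vit by 1.19 ± 0.28 and the BCL2 family gene Bok by 1.35 ± 0.35. Dentate markers had 2 lower of 9 (22.2%, against 12% of all genes), Prox1 (-0.75), the granule cell transcription factor, and the desmosomal gene Dsp (-0.80). Interneuron markers had Pvalb (1.09) and Npy (0.64) higher of 11 (18.2%, against 10.2% of all genes). These 2 were the only members above 0. The list median was -0.15, and 0.19 without KO fear 1 and 2. Slc32a1 (-0.65), the vesicular GABA transporter, was lower (9.09%, against 12%). It held 48.2, 68.7 and 56.5 CPM in WT fear and 29.5, 35.6, 71.4 and 81.1 CPM in KO fear. KO fear 3 and 4 thus lay above every WT library, and without KO fear 1 and 2 the log2 difference of Slc32a1 was -0.02. Of the neighbouring regions, thalamus markers had 1 of 9 higher (11.1%), Prkcd at 1.05. Neocortex markers had 1 of 10 higher (10%), Hs3st4 at 1.15, and 3 lower (30%), Fezf2, Tbr1 and Scnn1a at -1.17, -0.49 and -0.87. The higher shares of thalamus and neocortex markers were near that of all genes.

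Oligodendrocyte markers were higher in KO, 9 of 15 with 0 lower, against 10.2% of all genes, with a median of 0.86. In all 15 the 4 KO libraries lay above the 3 WT libraries, against 10.7% of all genes. Mbp, myelin basic protein, stood at 2175, 1549 and 1972 CPM in WT fear and at 3824, 4798, 3819 and 2791 CPM in KO fear, a log2 difference of 1.12 ± 0.26 (edgeR adjusted p = 0.0163). Aspa, which splits N-acetylaspartate into acetate and aspartate in oligodendrocytes, rose from 14.0, 11.7 and 11.7 CPM to 30.3, 33.7, 32.5 and 24.4 CPM. Each KO library was well above WT, by 1.39 ± 0.33. The myelin genes Mog and Mobp rose by 1.22 ± 0.30 and 1.01 ± 0.27. Summed oligodendrocyte markers ran from 4140 to 5520 CPM in WT fear and from 7000 to 10900 CPM in KO fear, while the WT home cage libraries ran from 7120 to 14200 CPM. The WT fear libraries were thus the low ones. Oligodendrocyte precursor markers had 0 of 8 called by edgeR or DESeq2 and 1 at an unadjusted p under 0.05, with Cspg4 at -0.48 ± 0.22 and Neu4 at 0.29 ± 0.19.

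Ependymal and choroid plexus markers showed the largest list medians, 3.10 and 2.05. Ependyma, the ciliated lining of the ventricles, had 11 of 12 markers higher (91.7%) and choroid plexus 10 of 14 (71.4%), against 10.2% of all genes. Summed ependymal markers were 14.2, 13.3 and 11.1 CPM in WT fear and 72.5, 102, 51.0 and 38.6 CPM in KO fear. The WT home cage libraries held 56.6 to 147 CPM and the KO home cage libraries 33.1 to 149 CPM, so WT fear again stood low. Spag17, of the ciliary central apparatus, had 1 read in the 3 WT fear libraries and 65 in the 4 KO fear libraries, a ratio of 27.0 relative to depth (95% counting interval 4.67 to 1080). Dnah11, a ciliary dynein, rose by 3.70 ± 0.75. Spag17 overlaps Wdr3 and Dnah11 overlaps Cdca7l on the other strand. Ttr, the thyroid hormone carrier made by choroid plexus, held 98.0, 21.7 and 47.0 CPM in WT fear and 139, 446, 58.5 and 95.4 CPM in KO fear. KO fear 2 was far above the rest, and WT fear 1 lay inside the KO range. Ttr differed by 2.37 ± 0.53 and the choroid plexus genes Otx2, Kcne2 and Sostdc1 by 2.21, 2.88 and 1.90. Otx2 overlaps Otx2os1 on the other strand.

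Markers of the remaining cell types had fewer calls. Of 10 astrocyte markers, Gfap (0.70), S100b (0.79) and Aqp4 (0.51) were higher, 30% against 10.2% of all genes. S100b overlaps Dip2a on the other strand. Microglia had 1 of 11 higher (9.09%), near the share of all genes, and pericytes and smooth muscle had Acta2 and Vtn (0.47) of 11 (18.2%). The list medians of microglia and of pericytes and smooth muscle were 0.48 and 0.47. For 5 of the 11 members of each, all 4 KO libraries lay above all 3 WT libraries, against 10.7% of all genes. Summed levels of 3 lists separated the groups: microglial markers held 534 to 625 CPM in WT fear and 637 to 792 CPM in KO fear, pericyte and smooth muscle markers 80.1 to 110 and 112 to 189 CPM, and endothelial markers 106 to 118 and 130 to 264 CPM. In each of these lists every KO fear library was above every WT fear library, on sums not adjusted for batch. Endothelial markers held 130 and 152 CPM in KO fear 1 and 2 and 200 and 264 CPM in KO fear 3 and 4. Pericyte and smooth muscle markers held 121 and 112, and 166 and 189 CPM. KO home cage 4 and 5, also of B3, held 198 and 274 CPM of the endothelial list and 150 and 187 CPM of the pericyte list. In the fit with batch the endothelial median was 0.08, and -0.10 without KO fear 1 and 2. Meningeal fibroblast markers had 1 of 10 called, Dcn, which was lower (10%, against 12% of all genes). Endothelium had 0 of 10 called by edgeR or DESeq2 and 2 at an unadjusted p under 0.05, with Slco1a4 at 0.56 ± 0.22 and Cldn5 at 0.67 ± 0.27. Red blood cell markers were near 0, with 1 of 7 tested, Alas2 at -0.26 ± 0.62, and of the 5 sex-linked genes tested 0 passed by edgeR, by DESeq2 or at an unadjusted p under 0.05, with Ddx3y at 0.22 ± 0.12 and Eif2s3y at 0.28 ± 0.18. The Y-linked genes were expressed in all 7 libraries, Ddx3y at 78.5 to 120 CPM.

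**Figure D2:**
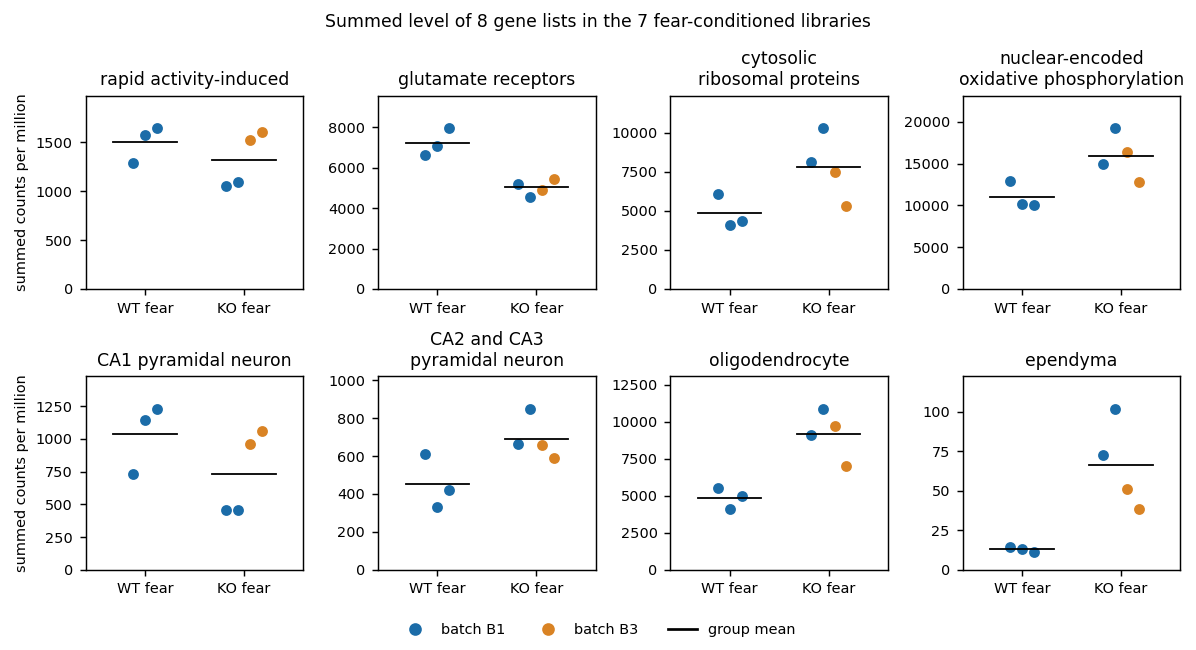
Summed CPM (y axis) of the members of 8 gene lists in the 3 WT fear and 4 KO fear libraries; points are libraries coloured by batch and lines are group means. Oligodendrocyte and ependymal markers were higher in all 4 KO libraries than in any WT library. CA1 markers and rapid activity-induced genes were under the WT fear range in the B1 knockouts (456 and 455 CPM, and 1050 and 1100 CPM) and within it in the B3 ones.

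Some activity-induced genes, Egr1 and Jun among them, were lower in KO, and others, Fos and Arc among them, did not pass. Of 31 rapid activity-induced genes, 6 were lower and 0 higher, and the list median was -0.21. The share lower, 19.4%, compares with 12% of all genes. Summed, the list held 1290, 1580 and 1650 CPM in WT fear, and 1050, 1100, 1530 and 1610 CPM in KO fear 1 to 4. Only the B1 knockouts lay under WT fear, as they did for CA1 markers, and both were above the WT home cage range of 745 to 904 CPM. Without the B1 knockouts the list median was -0.07.

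The 6 were the transcription factor genes Jun, Fosb, Egr1, Egr3 and Egr4 and the synaptic scaffold gene Homer1. Jun, an AP-1 subunit, stood at 130, 146 and 134 CPM in WT fear 1 to 3 and at 80.9, 84.5, 122 and 116 CPM in KO fear 1 to 4. Every KO library was under every WT library, with the B1 knockouts lowest, and the log2 difference was -0.72 ± 0.14 (edgeR adjusted p = 0.0156). Egr3, a zinc finger factor, went from 144, 139 and 177 CPM to 89.1, 91.0, 132 and 136 CPM. Its groups did not overlap either, though KO fear 3 and 4 came close to WT (-0.66 ± 0.14, and -0.25 without KO fear 1 and 2). Homer1, whose short form is induced by activity and loosens the link between glutamate receptors and the synapse, went from 151, 154 and 187 CPM to 116, 104, 120 and 125 CPM. All KO libraries were under WT (-0.51 ± 0.12). The counts do not separate its short and long forms. Egr1 held 148, 213 and 239 CPM in WT fear and 93.2, 94.1, 185 and 210 CPM in KO fear. KO fear 3 and 4 lay inside the WT range, and the log2 difference of -0.90 ± 0.24 (edgeR adjusted p = 0.0212) was -0.15 without KO fear 1 and 2. Fosb and Egr4, named after their values were seen, were lower by 1.01 ± 0.28 and 0.83 ± 0.27 (edgeR adjusted p = 0.024 and 0.0363), both with groups that overlapped. Egr4 held 22.5, 43.4 and 34.8 CPM in WT fear and 12.9, 21.1, 40.5 and 45.5 CPM in KO fear. Without KO fear 1 and 2 the log2 differences of Fosb and Egr4 were -1.06 and -0.26.

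Other members, likewise named after their values were seen, did not pass. Fos held 18.3, 33.4 and 23.4 CPM in WT fear and 18.5, 21.3, 34.9 and 36.7 CPM in KO fear, and the groups overlapped (-0.28 ± 0.28, edgeR adjusted p = 0.483). Arc, a cytoskeletal regulator of synaptic strength, held 242, 261 and 337 CPM against 267, 229, 308 and 311 CPM (-0.26 ± 0.25, adjusted p = 0.467). The neuronal factor gene Npas4 had a log2 difference of -0.02 ± 0.38, which was 0.04 with upper-quartile scaling. Junb, Nr4a1 and Egr2 had values of -0.56 ± 0.20, -0.66 ± 0.26 and -0.90 ± 0.38 (edgeR adjusted p = 0.0526, 0.0774 and 0.0903). The errors of Fos, Arc and Npas4 are wide enough to hold sizeable differences of either sign. In the home cage, where the same 31 genes had a median of 0.16, Fos differed by 0.99 and Arc by 0.57, and neither passed.

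**Figure D3:**
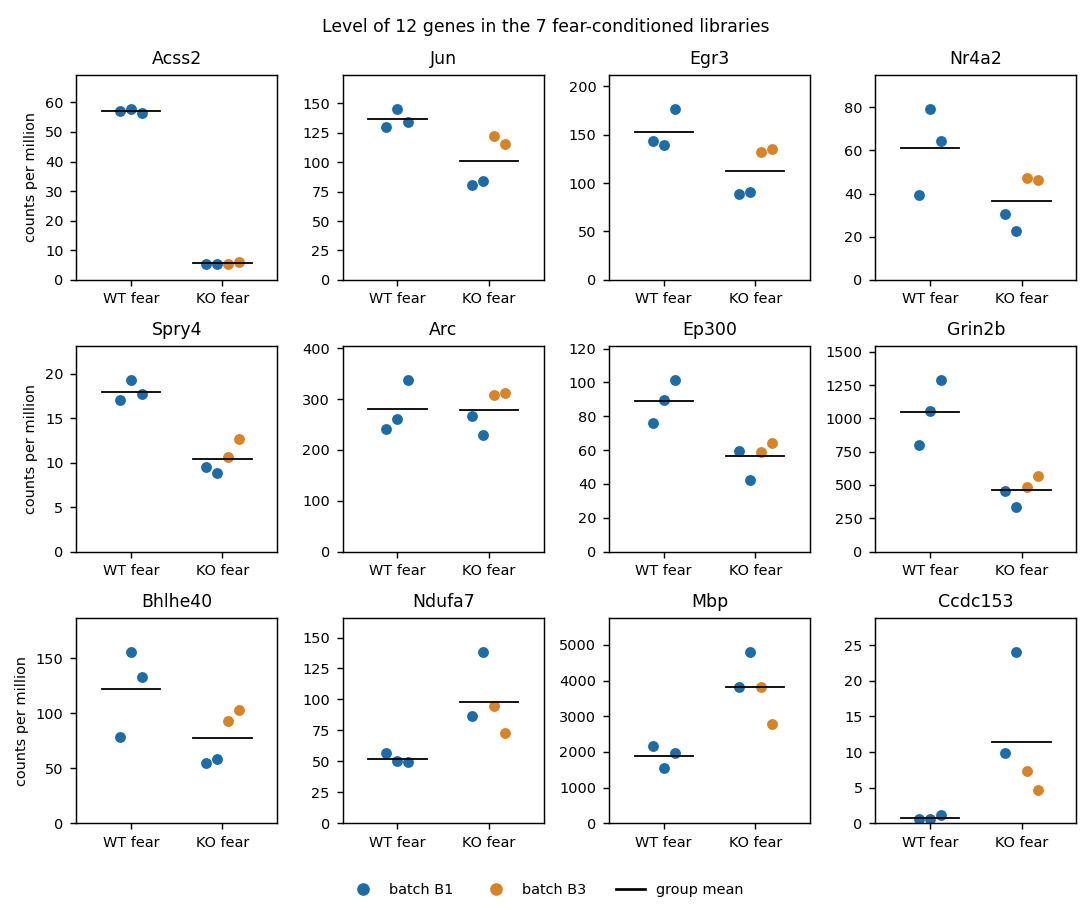
Level (CPM, y axis) of 12 genes in the 3 WT fear and 4 KO fear libraries; points are libraries coloured by batch and lines are group means. Acss2 fell to 5.2 to 6.06 CPM in every KO library. Spry4, Ep300 and Grin2b were lower in KO libraries of both batches, while Arc overlapped.

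Among the 25 genes of the delayed wave, 5 were lower and 2 higher, with a median of -0.12. The lower ones, 20% against 12% of all genes, were Spry4, Dusp6, Dusp4, Nr4a2 and Plk2, and the higher ones were 8% against 10.2%. Dusp6, an ERK phosphatase gene, held 90.3, 102 and 113 CPM in WT fear and 65.0, 68.3, 80.3 and 92.5 CPM in KO fear. KO fear 4 passed just over the lowest WT library (-0.58 ± 0.13, edgeR adjusted p = 0.0156). Dusp4, a related phosphatase gene named after its values were seen, went from 38.4, 29.8 and 41.2 CPM to 21.5, 24.6, 24.4 and 28.8 CPM, all KO libraries under WT (-0.64 ± 0.20, edgeR adjusted p = 0.0332). Other genes of these families on the activity lists did not pass: Spry2 stood at -0.06 ± 0.11, Dusp1 at -0.21 ± 0.23 and Dusp5 at 0.00 ± 0.19 (edgeR adjusted p = 0.71, 0.536 and 0.993), all named after their values were seen. Nr4a2, an orphan nuclear receptor that neurons induce during memory formation, held 39.1, 79.3 and 64.3 CPM in WT fear and 30.3, 22.5, 47.2 and 46.0 CPM in KO fear. WT fear 1 lay inside the KO range (-1.16 ± 0.22, edgeR adjusted p = 0.0156). Plk2, a Polo-like kinase gene, stood at -0.42 ± 0.14 (edgeR adjusted p = 0.0429), named after its values were seen. Ptgs2, the inducible cyclooxygenase gene, was higher by 0.80 ± 0.22, with 43.6, 16.4 and 28.0 CPM against 46.9, 51.0, 43.7 and 41.9 CPM, and the small GTPase gene Rheb, named after its values were seen, by 0.45 ± 0.15. The neurotrophin gene Bdnf did not pass (0.30 ± 0.13, edgeR adjusted p = 0.105).

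The 250 bases before the transcription start were searched for the binding sequence of CREB, a factor that calcium and cAMP signals activate, in the 11 activity-induced genes that were lower. Of these, 7 matched RefSeq promoters (GRCm38.p6); Egr1, Egr3, Spry4 and Dusp4 had no entry. The short site TGACG, on either strand, occurred in Nr4a2, Plk2, Egr4, Fosb and 1 of the 2 windows of Homer1, 5 of the 8 windows of these genes, and in 17.8% of 32851 promoter windows of the same length. The full site TGACGTCA, which contains the short site, occurred in 1 of the 8 windows, that of Plk2, and in 1.55% of all windows. The CArG box of serum response factor occurred in 0 of the 8 and in 1.47% of all windows. A match describes letters and not a bound site. Activity-induced genes that were not lower were not counted separately. These shares therefore do not set the lower genes apart from the rest of their lists. The 3 windows below are shown for their different layouts, with matches in capitals: Nr4a2 (chr2:57124004-57124253, minus strand) with 4 short sites, Egr4 (chr6:85513590-85513839, minus strand) with 2, and Plk2 (chr13:110394794-110395043, plus strand) with the full site.
Nr4a2: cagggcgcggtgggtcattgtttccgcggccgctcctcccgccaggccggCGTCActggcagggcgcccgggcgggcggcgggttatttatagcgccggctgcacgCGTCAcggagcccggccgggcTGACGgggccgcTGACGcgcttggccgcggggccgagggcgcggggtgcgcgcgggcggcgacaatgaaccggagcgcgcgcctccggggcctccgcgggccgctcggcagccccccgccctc
Egr4: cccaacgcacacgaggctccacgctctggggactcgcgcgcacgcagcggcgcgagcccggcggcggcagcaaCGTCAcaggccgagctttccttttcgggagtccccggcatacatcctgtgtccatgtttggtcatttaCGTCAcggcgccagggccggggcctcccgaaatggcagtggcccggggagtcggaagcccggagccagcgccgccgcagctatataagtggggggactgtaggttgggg
Plk2: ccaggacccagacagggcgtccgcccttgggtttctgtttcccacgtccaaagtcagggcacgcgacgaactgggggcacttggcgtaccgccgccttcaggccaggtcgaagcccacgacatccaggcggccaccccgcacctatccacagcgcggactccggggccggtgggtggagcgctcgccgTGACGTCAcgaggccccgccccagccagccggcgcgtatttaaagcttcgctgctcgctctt

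The kinases and cofactors upstream of these genes were lower for 7 of 27 members (25.9%, against 12% of all genes) and higher for 0, with a median of -0.26. Prkaca, the catalytic subunit of protein kinase A, went from 141, 168 and 152 CPM in WT fear to 102, 95.6, 125 and 138 CPM in KO fear. The groups did not overlap, and the B3 knockouts were nearest to WT (-0.56 ± 0.12, edgeR adjusted p = 0.0156). Mef2d, a calcium-regulated transcription factor that overlaps 1700113A16Rik on the other strand, differed by -0.70 ± 0.16, the calmodulin kinase subunit gene Camk2g by -0.42 ± 0.12 and the ribosomal S6 kinase gene Rps6ka2 by -0.60 ± 0.19. The remaining members that passed, named after their values were seen, included the calmodulin kinase kinase gene Camkk2 (-0.36) and Prkar2b (-0.46), a regulatory subunit of protein kinase A.

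Glutamate receptor genes were lower as a group of counts. Of 22 subunit genes, 13 were lower (59.1% against 12% of all genes) and 0 higher, and the median was -0.52. By class, 3 of 4 AMPA, 3 of 6 NMDA, 2 of 5 kainate and 5 of 7 metabotropic receptor genes were lower. The median transcript length of the list was 5436 bases; values by transcript length are given below. Grin2b, an NMDA receptor subunit tied to plasticity, stood at 803, 1056 and 1285 CPM in WT fear and at 454, 338, 487 and 564 CPM in KO fear. All 4 KO libraries, of both batches, were under the lowest WT library (-1.23 ± 0.28, edgeR adjusted p = 0.0156). Its partner Grin2a, named after its values were seen, went from 669, 627 and 858 CPM to 406, 270, 413 and 443 CPM (-0.94 ± 0.23, edgeR adjusted p = 0.0178). Gria1, the main AMPA subunit of CA1 plasticity and named in the same way, went from 1693, 1689 and 1959 CPM to 1298, 1131, 1274 and 1416 CPM. Neither overlapped between groups, and Gria1 differed by -0.51 ± 0.15 (edgeR adjusted p = 0.0287). The presynaptic metabotropic receptor gene Grm2 differed by -0.97 ± 0.21, the kainate subunit gene Grik3 by -1.13 ± 0.25 and Grm5, the group I metabotropic receptor, by -0.70 ± 0.17, with no overlap. Without KO fear 1 and 2 the list median was -0.33 and 0 of the 22 passed by edgeR. Of 12 GABA-A receptor genes, Gabrg3 (-0.98 ± 0.22) and Gabra3 (-1.03 ± 0.30) were lower (16.7%, against 12% of all genes), both with groups that overlapped.

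Genes of acetyl-CoA metabolism moved little as a list. Of 36 members, 4 were higher and 4 lower (11.1% each, against 10.2% and 12% of all genes), and the median was 0.04. Acly, the enzyme that makes acetyl-CoA from citrate in the same compartments as ACSS2, stood at 159, 177 and 177 CPM in WT fear and at 147, 128, 156 and 158 CPM in KO fear. All KO libraries were slightly under WT, and the difference did not pass (-0.29 ± 0.10, edgeR adjusted p = 0.0584; named after its values were seen). Acss1, the mitochondrial relative, had a value of 0.08 ± 0.15. Besides Acss2, the lower genes were Nat8l (-0.52 ± 0.12), which uses acetyl-CoA to make N-acetylaspartate, Fasn (-0.64 ± 0.18), the fatty acid synthase, and Pdk1 (-0.37 ± 0.12), an inhibitory kinase of pyruvate dehydrogenase. The higher ones were Acot7 (0.45 ± 0.13), a brain acyl-CoA thioesterase, Mpc2 (0.64 ± 0.20), of the mitochondrial pyruvate carrier, Pdha1 (0.28 ± 0.09), of pyruvate dehydrogenase, and Acat1 (0.37 ± 0.11), a mitochondrial thiolase. Nat8l and Fasn overlapped between groups, with KO fear 3 and 4 inside the WT range. Acss1, Pdk1, Mpc2, Pdha1, Acat1, Mvd and Scd1 were named after their values were seen. In sterol and fatty acid synthesis, 5 of 30 were higher (16.7%, against 10.2% of all genes) and 1, Fasn, lower (3.33%, against 12%). The higher ones were the sterol enzymes Msmo1 (0.68), Fdps (0.68), Ebp (0.65) and Mvd (0.48) and the desaturase Scd1 (0.60).

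Of 42 genes that write, remove or read histone acetylation, 12 were lower (28.6%, against 12% of all genes) and 3 higher (7.14%, against 10.2%). Of 15 acetyltransferase and coactivator genes, 8 were lower and 1 higher, with a median of -0.44. Of 17 deacetylases 1 was lower and 2 higher, and of 10 acetyl-lysine readers 3 were lower. Ep300, which acetylates histone tails at enhancers, stood at 75.9, 89.6 and 101 CPM in WT fear and at 59.6, 42.0, 58.9 and 64.4 CPM in KO fear. Its relative Crebbp, the CREB-binding protein, stood at 46.1, 59.5 and 64.9 CPM and at 38.8, 27.8, 23.3 and 23.7 CPM. For both, named after their values were seen, the KO libraries of both batches lay under WT (-0.75 ± 0.20 and -0.70 ± 0.18, edgeR adjusted p = 0.0198 and 0.0188). The nuclear receptor coactivator genes Ncoa1 and Ncoa2 differed by -0.76 ± 0.18 and -0.78 ± 0.19. Of the bromodomain readers, Brd3 differed by -0.47 ± 0.10, with no overlap between groups. Hat1, which acetylates new histones, was higher (0.60 ± 0.20), as were the deacetylase genes Sirt2 (0.42) and Sirt5 (0.57), the first of them an oligodendrocyte gene; Hdac4 (-0.44) was lower. These 4 were named after their values were seen. The list's median transcript length was 4611 bases.

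Clock genes were lower for 9 of 16 members (56.2%, against 12% of all genes), with 0 higher and a median of -0.46. Bhlhe40, a repressor that is also induced by activity and that overlaps 0610040F04Rik, held 78.6, 156 and 133 CPM in WT fear and 54.4, 58.0, 92.8 and 103 CPM in KO fear. WT fear 1 lay between the KO batches (-1.08 ± 0.21, edgeR adjusted p = 0.0156). Per2, a core repressor of the clock, held 30.4, 43.8 and 42.8 CPM against 19.3, 20.1, 18.7 and 27.2 CPM, all KO libraries under WT (-0.94 ± 0.21). Per1 differed by -0.88 ± 0.21 and the output factor gene Hlf by -0.93 ± 0.20. Without KO fear 1 and 2 the list median was -0.48, and in the home cage it was 0.07. The hour at which mice were killed is not stated in the labels.

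Of 21 glucocorticoid-induced genes, which respond to stress hormone, 5 were lower (23.8%, against 12% of all genes) and 1 higher (4.76%, against 10.2%), with a median of 0.05. The lower ones were Per1, Zbtb16 (-0.91), Bcl6 (-0.81), Fkbp5 (-0.48) and Ddit4 (-0.34), and the metallothionein gene Mt1 was higher, at 146, 130 and 141 CPM in WT fear and 260, 303, 332 and 213 CPM in KO fear (0.93 ± 0.25, edgeR adjusted p = 0.0218). Mt1 did not overlap between groups. Heat shock genes had Hspa8 (0.37) and Chordc1 (0.32) higher and Hspa4l (-0.36) lower of 15 (13.3% and 6.67%). Genes of the unfolded protein and integrated stress response had Asns (0.51) and Hsp90b1 (0.47) higher of 15 (13.3%). The higher shares of both lists were near that of all genes. Of 23 interferon response genes 0 passed by edgeR, 3 were higher by DESeq2 and 6 had an unadjusted p under 0.05. The list median was 0.56, against 0.01 over all genes, and 20 members were above 0. Rtp4 stood at 1.71 ± 0.65 and Bst2 at 1.13 ± 0.44 (edgeR adjusted p = 0.066 and 0.0684). Fkbp5 and Ddit4 were named after their values were seen.

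Genes of the ribosome and the respiratory chain, whose transcripts are short, were higher in KO for most members. Of 76 cytosolic ribosomal protein genes tested, 54 were higher (71.1%, against 10.2% of all genes) and 0 lower, with a median of 0.83. Of 81 nuclear genes of oxidative phosphorylation, 63 were higher (77.8%) and 0 lower, with a median of 0.71. All 4 KO libraries lay above all 3 WT libraries for 22 and 31 of the members, against 10.7% of all genes. Summed ribosomal protein RNA held 6070, 4110 and 4330 CPM in WT fear and 8100, 10300, 7450 and 5330 CPM in KO fear. KO fear 4 lay inside the WT range, and KO fear 2 was highest. Rpl13, of the large subunit, held 19.8, 14.7 and 12.4 CPM against 33.2, 78.05, 32.75 and 19.8 CPM. KO fear 2 was far above the rest and KO fear 4 level with WT fear 1 (1.67 ± 0.34, edgeR adjusted p = 0.0156). Ribosomal protein genes have near-identical pseudogenes, so their counts are uncertain. Cox6a1, of cytochrome oxidase, held 274, 187 and 187 CPM against 361, 603, 380 and 281 CPM (1.08 ± 0.23), and the complex I genes Ndufb7 and Ndufa11 differed by 1.18 ± 0.25 and 0.91 ± 0.18. In the home cage the ribosomal and respiratory lists had medians of 0.37 and 0.39 with 0 members called by edgeR.

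Transcript length moved with the whole comparison. In the shortest of 5 equal bins of 14692 genes (up to 1984 bases) the median log2 difference was 0.42, with 803 genes higher and 42 lower. In the longest bin (from 5317 bases) it was -0.28, with 51 higher and 818 lower. Across these genes, which are not independent replicates, Spearman's rank correlation between length and the log2 difference was -0.49, and within B1 it was -0.51. The home cage difference had a correlation of -0.53 with a shallower slope, from 0.18 in the shortest bin to -0.16 in the longest. WT fear 2 and 3 were lowest for short transcripts, at medians of -0.27 and -0.30 from the average of the WT home cage libraries. On the same scale KO fear 2 was high at 0.30 (0.09 in KO fear 1, 0.21 in KO fear 3 and 0.02 in KO fear 4). Ribosomal and respiratory transcripts had median lengths of 1054 and 1001 bases. The part of length in the differences of these lists, of the glutamate receptors and of the histone acetylation genes was not tested.

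**Figure D4:**
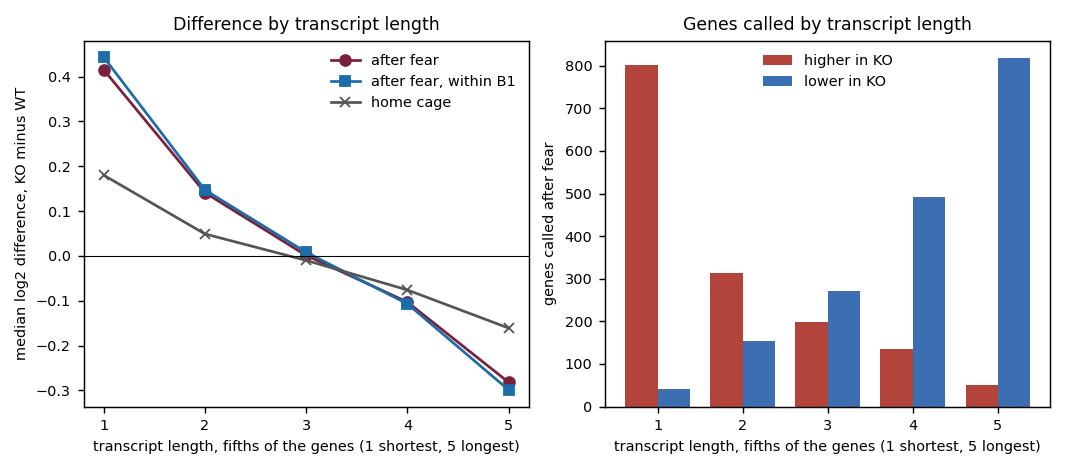
Left, median log2 difference between KO and WT (y axis) in 5 equal bins of 14692 genes by transcript length (x axis), after fear, after fear within B1 and in the home cage. Right, number of genes called higher and lower after fear in the same bins; short transcripts were mostly higher in KO (803 against 42) and long ones mostly lower (818 against 51).

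KO against WT in the home cage called 1 gene by edgeR, Acss2 (0.00676% of genes), with 1670 genes at an unadjusted p under 0.05 and 2 called by DESeq2. This count also rested on single libraries: without KO home cage 3, 576 genes passed by edgeR and 4012 had an unadjusted p under 0.05. The genotype difference after fear minus that in the home cage passed for 71 genes (0.480%), 29 positive and 42 negative, of which 68 were also called after fear. These 71 share the WT fear libraries with the main comparison. Activity-induced genes among them were Egr1 (-1.38 ± 0.27 for the difference of differences), Nr4a2 (-1.39 ± 0.25), Dusp6 (-0.86 ± 0.15), Spry4 (-0.87 ± 0.16), Junb (-1.15 ± 0.22) and Egr2 (-2.75 ± 0.53), with edgeR adjusted p of 0.0405 to 0.0418. Egr1 differed by 0.48 between genotypes at rest and by -0.90 after fear, and Nr4a2 by 0.23 and -1.16. Junb and Egr2 were called in this test and not after fear itself. The count for this test was 0 without batch in the fit and without most single fear libraries; its range was 0 to 999 over the 17 fits with a library left out.

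**Figure D5:**
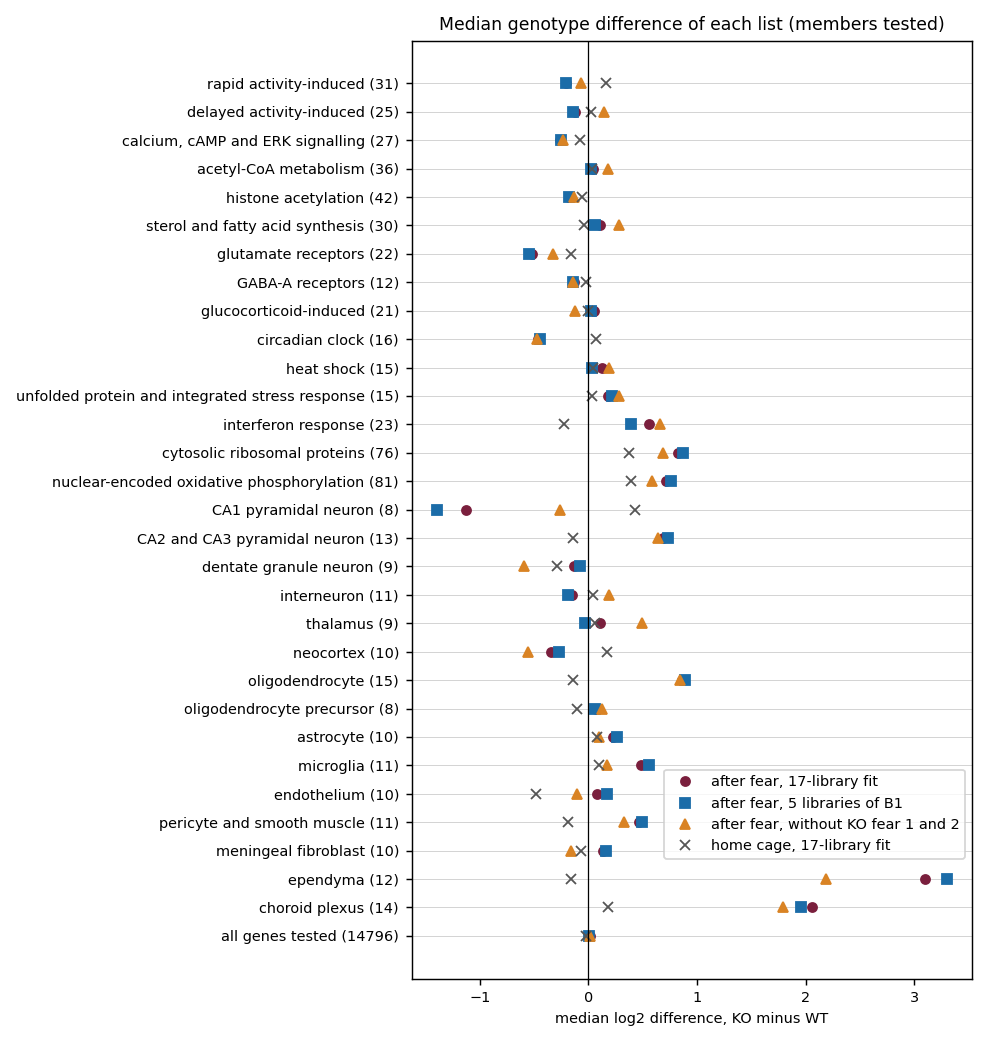
Median log2 difference between KO and WT (x axis) of the members of each list, with the number tested (y axis), after fear in the 17-library fit, within B1, without KO fear 1 and 2, and in the home cage. Ependyma (3.10) and choroid plexus (2.05) lay farthest to the right and CA1 markers (-1.12) farthest to the left after fear, and the home cage medians lay between -0.49 and 0.43.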

How the data were processed

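Polyadenylated RNA of dorsal hippocampus was sequenced after NEBNext Ultra II RNA library preparation, as the labels' protocols state. The authors deposited raw counts per gene symbol, 24985 symbols in 17 dorsal libraries. Per the submitters' processing notes, mm10, HTSeq 0.9.1, SAMtools 1.1, STAR, limma and DESeq2 were used, with no role or order given. The sources used here name no annotation; GENCODE M21 held 98.1% of the symbols. Symbols turned into dates, 26 of them with at most 0.358% of a library's counts, were left out. Any 2 fear libraries of a group differed beyond sampling noise (chi-square per gene 7.72 to 44.2).

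Testing used edgeR 4.0.16 (R 4.3.3), its quasi-likelihood F test, TMM scaling and filterByExpr (count minimum 10, total minimum 15), with terms for group and batch over 17 libraries and 11 residual degrees of freedom. Tests were two-sided, and p-values were Benjamini-Hochberg adjusted over 14796 genes with a threshold of 0.05. The standard error is the log2 difference divided by the square root of F. In this fit WT fear 1 to 3 weigh -0.333 each, KO fear 1 and 2 0.406 each and KO fear 3 and 4 0.094 each. On simulated counts, 78% of genes changed 2-fold and all changed 4-fold were called, and 5.32% of calls were unchanged genes (14690 genes). The simulation drew noise for each gene independently, with no factor shared by the genes of a library such as cell type content or transcript length. It therefore does not give the share of false calls in these data. Totals set the counting precision. Intervals on reads cover counting error only, as the reads carry no molecular identifiers. CPM were computed from the deposited counts and scaled totals.

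Gene lists and comparisons were chosen with earlier results of these data known. Named genes are Acss2, then, among passing genes with the same sign within B1 and leaving out unnamed gene models, the 10 of smallest p in each direction, the 5 further with the largest change at 5 CPM or more in the higher group, and from each list up to 4 passing members of smallest p, or 2 where none passed. Others are said to be named after their values were seen. Alternatives were other scalings, DESeq2 1.42.0, other filters, other sets of libraries, fits with no batch term and fits with a replicate block. Whole hippocampus libraries were not used here. Some genes are not reported here.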

Additional observations from a re-analysis of the deposited data

Results flagged for a closer look

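In 5 of the 133 named genes, a library of KO fear lay apart from the other 3 by Dixon's criterion, where chance marks about 1 in 20 groups. The sterol enzyme gene Fdps stood at 41.7 CPM in KO fear 2, and the CA2 gene Amigo2 at 33.5 CPM and the cortical sodium channel gene Scnn1a at 3.38 CPM in the same library. Zbtb16 was low in KO fear 1, at 47.7 CPM, and the clock gene Per2 was high in KO fear 4, at 27.2 CPM.

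For 25 of the named genes the genotype difference after fear differed from that in the home cage by the interaction test of edgeR. Values are the difference after fear minus that at rest, on the log2 scale. Ciliary and ventricular genes had the largest: Spag17 (5.74), Dnah11 (4.60), Ccdc153 (4.30), Ak7 (3.89) and the choroid plexus gene Sostdc1 (1.93), with smooth muscle Acta2 at 3.03. Activity-induced and clock genes were negative: Egr1 (-1.38), Nr4a2 (-1.39), Dusp6 (-0.86), Spry4 (-0.87) and Bhlhe40 (-1.47). The CA1 genes Gpr161 (-2.04) and Mpped1 (-1.40) were negative, and the CA2 genes Amigo2 (1.49) and Ntf3 (1.30) and the astrocyte gene Gfap (0.85) positive. The rest were Arg2 (2.41), Mndal (1.98), Serpinb8 (1.61) and Scgn (2.01), and Irf2bp2 (-0.60), Rhobtb2 (-0.76), Lrfn2 (-0.74), Tmem267 (-1.05) and Rxfp1 (-4.10). All rest on the 3 WT fear libraries, which stood apart from the other 14, and also on single home cage libraries. The cause was not tested.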

How the results depend on the processing

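Scaling, filters and DESeq2 with all libraries kept the count of genes called after fear within 1.5 times of 3286, and every one of those genes its sign wherever it was tested; upper-quartile scaling had 55.7% of calls higher against 45.8%. The count fell to 1537 in 17 libraries without batch and to 417 in the 7 fear libraries without batch. Leaving out 1 library gave 1 to 4602. Without KO fear 1 and 2 together it was 1, and by DESeq2 it was 3; DESeq2 gave 1932 without WT fear 2, 1800 without WT fear 3 and 1147 without KO fear 2. Of 119 named genes that passed, 102 also passed within B1, 64 in 17 libraries without batch and 38 in 7.

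Same-numbered fear libraries did not deviate together (correlations 0.154, -0.234 and -0.03). The KO deviations were taken from a mean over both batches, so these few correlations cannot settle whether the numbers pair samples. With a replicate block 1 gene passed, 3721 had an unadjusted p under 0.05 and all 3286 kept their sign; the interaction gave 0 with the block (2837 unadjusted).

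The interaction count of 71 became 130 with RLE scaling, 899 with DESeq2, 407 with no filter, 0 in 17 libraries without batch (1836 unadjusted) and 0 to 999 without 1 library. The home cage count of 1 became 2 with DESeq2, with no filter and without batch, and 1 to 576 without 1 library, the highest without KO home cage 3.

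Named genes whose value changed sign had not passed; of all 3286 called genes, 3266 kept their sign without KO fear 1 and 2 by edgeR and 3268 by DESeq2. Alas2 was 0.23 in the 7 fear libraries with batch and within B1 (0.228), 0.14 and 0.15 without batch in 17 and 7 libraries, -0.66 to 0.0357 without 1 library, and 0.081 by DESeq2 without WT fear 3. Fos was 0.16 and 0.17 without batch, and without KO fear 1 and 2 0.0862 by edgeR and 0.0877 by DESeq2. Arc was 0.0074 in 7 libraries without batch, and Slco1a4 -0.0039 by DESeq2 without KO fear 1 and 2. Npas4 was 0.0357 with upper-quartile scaling, 0.49 and 0.50 without batch, -0.10 to 0.24 without 1 library, 1.14 without KO fear 1 and 2 (1.12 by DESeq2), and 0.0402 and 0.12 by DESeq2 without WT fear 2 and KO fear 2. The cause of these changes was not tested. Of 1056 list medians, 971 stayed within 1 SD. Depth limits genes of few reads, such as Spag17 with 1 WT fear read.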
